A study of Mus musculus with 96 samples.

Results

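Aldoa, Pgam1, Pgam2, Eno1, Eno2, Eno3, Pkm, Pklr, Ldha, and Ldhb encode tissue isoforms of 5 enzymes of glycolysis, and their rows were taken by symbol from a table of 41575 gene symbols, so that 10 genes of 41575 are described. The study profiled 16 tissues by multiplexed RNA sequencing in 3-week-old mice, either wild-type or Scx-/-, with 3 libraries per tissue and genotype and 96 libraries in all. The tissues were labelled muscle, heart, bone, cartilage, vascular, and adipose, the brain regions cortex and hippocampus, and liver, kidney, bladder, lung, spleen, stomach, intestine, and rectum. Scx encodes scleraxis, a transcription factor of tendon and ligament cells. The libraries were made from whole frozen organs, and the sources used here give neither the part of Scx missing from the mutant allele, nor the animals' sex, nor the mouse behind each library. The p-values below therefore measure the spread between libraries.

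Glycolysis splits glucose into pyruvate in the cytosol, and lactate dehydrogenase converts pyruvate and lactate into each other. Several of its steps are carried out by isoenzymes from separate genes, with forms long known as muscle, brain, liver, or heart types. Of the genes here, Aldoa encodes the aldolase of muscle and many other tissues, Pgam2 the muscle and Pgam1 the brain and general form of phosphoglycerate mutase, Eno1, Eno2, and Eno3 the alpha, gamma (neuronal), and beta (muscle) enolases, Pkm the M-type and Pklr the liver and red cell pyruvate kinases, and Ldha and Ldhb the A (muscle) and B (heart) subunits of lactate dehydrogenase.

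Library totals ranged from 11244 to 1658192 counts (median 251640), and 8 libraries held under 50000, among them wild-type heart replicate 2 with the lowest total. Levels are given as CPM, counts scaled to a library total of 1000000, and the libraries are enriched for the 3′ ends of transcripts, so a level is compared across tissues for 1 gene and not between genes. Scx itself had 80 counts in 12 of the 48 wild-type libraries and 9 counts in 1 of the 48 Scx-/- libraries. That library was cartilage replicate 1 labelled Scx-/-, at 37.2 CPM, whereas the wild-type cartilage libraries held 0, 7, and 1 counts (up to 28.2 CPM), so in cartilage Scx went against the label. Without this library the members called between muscle and cartilage were 5, as with it, and those between genotypes and for the common effect were 0, as with it. The tissue labels were checked on marker genes: adipose libraries held 131901 to 197026 CPM of 5 pancreatic acinar markers, of which Amy2a5 was at 0, and 5.99 to 124 CPM of 3 adipocyte markers, vascular libraries held 3499 to 13122 CPM of 3 brown fat markers, and cartilage and bone libraries held skeletal muscle markers, with values beside the genes below. The paper linked its vascular-specific genes to brown fat, took the vascular samples as contaminated, and left them out of its later analysis. They are kept here under their label. Wild-type heart replicate 2 held 5425 CPM of 4 kidney tubule markers, against 32.0 to 163 CPM in the other heart libraries. In whole tissues, fewer cells of a type and less RNA per cell cannot be told apart.

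Aldoa (chr7:126795234-126800994, mm10), the aldolase that cleaves fructose 1,6-bisphosphate, was the only member other than Pkm and Ldha with a count in all 96 libraries, and it was highest in muscle. In muscle, the wild-type libraries held 17002, 13454, and 10497 CPM and the Scx-/- libraries 16057, 15633, and 17050.0 CPM. Cartilage followed at 9962, 9729, and 7622 CPM in wild-type and 12231, 10601, and 9228 CPM in Scx-/- libraries. Muscle and cartilage overlapped, and together they lay above the other 14 tissues except for 1 bone library at 8209 CPM. Bone (mean 4847 ± 1957 CPM, SD, n = 6) and heart (mean 3014 CPM, range 2146 to 4121) came next, and the lowest tissues were spleen, adipose, and liver, with means of 243, 198, and 119.7 CPM. Each tissue overlapped its neighbour in this order.

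Pgam2 (chr11:5801637-5803796, minus strand, mm10), the muscle phosphoglycerate mutase, was found in 4 tissues at a high level. Muscle held 3617, 3949, and 3957 CPM in wild-type and 3819.7, 4199.9, and 3963 CPM in Scx-/- libraries, with no overlap with any other tissue. Cartilage ranged from 1261 to 2326 CPM, bone from 572 to 1673 CPM, and heart from 711 to 980.5 CPM. No other tissue overlapped heart: rectum, the next, had a mean of 83.3 CPM (range 0 to 156), and spleen had 1 count over its 6 libraries.

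Skeletal muscle markers moved with Pgam2 in cartilage and bone. The 8 markers (Acta1, Ckm, Mylpf, Tnnt3, Tnni2, Tnnc2, Myh4, and Pvalb) summed to 243545 to 284519 CPM in muscle, 116041 to 149636 CPM in cartilage, 24851 to 91455 CPM in bone, and 3195 to 4671 CPM in heart, and all 8 had a count in each of these tissues. On the mean, cartilage held 47.6% of the Pgam2 level of muscle and 49.1% of its marker sum, and bone held 22.4% and 22.5%. Per 1000 marker counts, the median library held 14.7 Pgam2 counts in muscle (range 13.6 to 16.2), 15.5 in cartilage (10.4 to 17.3), 15.3 in bone (7.76 to 27.2), 12.3 in rectum (0 to 19.5), and 15.2 in lung (2.83 to 41.2). Heart, with 206 Pgam2 counts per 1000 marker counts (164 to 307), and kidney, with 332 (144 to 711), lay above these tissues without overlap. In kidney both were low, Pgam2 at 44.3 to 128 CPM and the markers at 159.6 to 307 CPM. Heart libraries held 40822 to 66958 CPM of 7 cardiomyocyte markers. For Aldoa the same ratio was 56.2 in muscle (37.4 to 68.8), 73.0 in cartilage (65.7 to 91.0), and 84.1 in bone (53.7 to 129), so the medians were higher in cartilage and bone than in muscle, with overlapping ranges. How far muscle fibres in these samples set the levels was not tested.

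**Figure D1:**
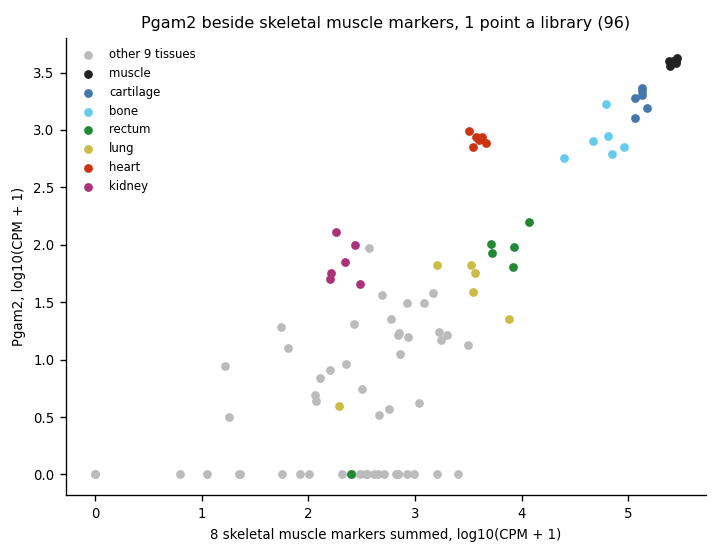
Pgam2 level against the summed level of 8 skeletal muscle markers in each of the 96 libraries, both as log10(CPM + 1). Muscle, cartilage, bone, rectum, and lung libraries lie along 1 band, whereas the 6 heart libraries, at 711 to 980.5 CPM of Pgam2, lie above it at 3195 to 4671 CPM of markers, and so do the 6 kidney libraries at 44.3 to 128 CPM of Pgam2.

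The 250 bases before the RefSeq start of Pgam2 (chr11:5803797-5804046, minus strand, GRCm38.p6) are printed because its muscle libraries lay above all other tissues without overlap. Capitals mark matches to the motifs searched on both strands, which were the E-box CANNTG, the TATA box TATAAA, the GC box GGGCGG, the hypoxia-inducible factor core ACGTG, and the MEF2 site. A CACGTG match counts as an E-box and holds ACGTG.
Pgam2: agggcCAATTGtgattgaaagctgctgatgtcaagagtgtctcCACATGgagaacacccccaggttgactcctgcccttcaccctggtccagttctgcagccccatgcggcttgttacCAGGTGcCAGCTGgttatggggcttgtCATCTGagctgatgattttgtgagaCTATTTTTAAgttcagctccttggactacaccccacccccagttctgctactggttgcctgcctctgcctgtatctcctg
Pgam2 had 5 E-box matches, the first bases of which lie at -245, -207, -132, -125, and -105 from the start, and 1 MEF2 match at -80. MEF2 factors and the E-box proteins of the MyoD family are regulators of muscle genes. Over 32851 promoter windows of the same 250 bases, 66.2% held an E-box and 2.92% a MEF2 match, and a match of letters is a description and not a bound site.

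Pgam1 (chr19:41911871-41918665, mm10), the general phosphoglycerate mutase, had 103 counts in 23 of 96 libraries, with a highest tissue mean of 8.36 CPM in kidney, and 0 counts in muscle, cartilage, bone, lung, and adipose. In the GENCODE vM21 transcripts, 1 other gene matched it over at least 200 bases at 95% identity or more, Pgam1-ps2 (100% over 765 bases, 5 counts). The share of Pgam2 in both mutases is not given, because Pgam1 was too low to serve as its counterpart.

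Eno2 (chr6:124760053-124769673, minus strand, mm10), the neuronal enolase, was high in both brain tissues and low or not detected elsewhere. Cortex held 1169, 1103, and 1293 CPM in wild-type and 1293, 1071, and 1125 CPM in Scx-/- libraries. Hippocampus held 1434, 953, and 1441 CPM in wild-type and 881, 942, and 866 CPM in Scx-/- libraries. These 12 libraries overlapped each other, and the highest value in any other tissue was 221 CPM in a rectum library that held 11 Eno2 counts. Bone had the next highest mean, 57.2 CPM, from 2 libraries at 130.0 and 213 CPM (15 and 9 counts) and 4 libraries at 0. Eno2 had 0 counts in heart, liver, and adipose, where 3 counts over the 6 libraries would give 2.31, 1.02, and 1.86 CPM, so the cortex mean was at least 508, 1154, and 634 times higher. The 5 neuron markers (Snap25, Stmn3, Syt1, Nefl, and Nrgn) summed to 9071 to 10839 CPM in cortex, 5963 to 7113 CPM in hippocampus, and at most 428 CPM in any other library.

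The 250 bases before the start of Eno2 (chr6:124769674-124769923, minus strand, GRCm38.p6) are shown because Eno2 had the sharpest brain pattern of the members.
Eno2: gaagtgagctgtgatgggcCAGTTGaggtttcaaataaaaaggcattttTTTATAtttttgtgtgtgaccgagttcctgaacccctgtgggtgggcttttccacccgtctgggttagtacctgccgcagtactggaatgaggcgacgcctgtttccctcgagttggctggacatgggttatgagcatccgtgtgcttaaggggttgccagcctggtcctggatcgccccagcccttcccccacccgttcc
They held 1 E-box match at -231 and 1 match to the letters TATAAA on the opposite strand at -201, and none to the GC box, ACGTG, or MEF2. Of all windows, 12.4% held TATAAA.

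The other enolases were barely counted. Eno1 (chr4:150236708-150248879, mm10), the general form, had 9 counts in 8 libraries, and its copies Eno1b (99.5% identical over 1736 bases), Gm4735, and Gm5855 had 31, 25, and 7. Eno3 (chr11:70653125-70662513, mm10), the muscle form, is listed at 0 in all 96 libraries. Within 1000000 bases on either side, 57 of 84 protein-coding genes, Eno3 included, were at 0 (67.9%, against 18.7% over chromosome 11), among them Eif5a, Gabarap, and Psmb6, which nearly every cell uses, and the muscle and fat glucose transporter Slc2a4. A value of 0 for Eno3 is therefore not read as its level in muscle. Gapdh and Pgk1, which act between aldolase and phosphoglycerate mutase in the pathway, had 370 and 339 counts in all and reached means of at most 33.7 CPM (muscle) and 27.6 CPM (intestine). Gapdh had 78 other genes with matching sequence at that length and identity, of which 75 are in the count table with 573 counts in all. The part of shared sequence in these low counts was not tested.

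**Figure D2:**
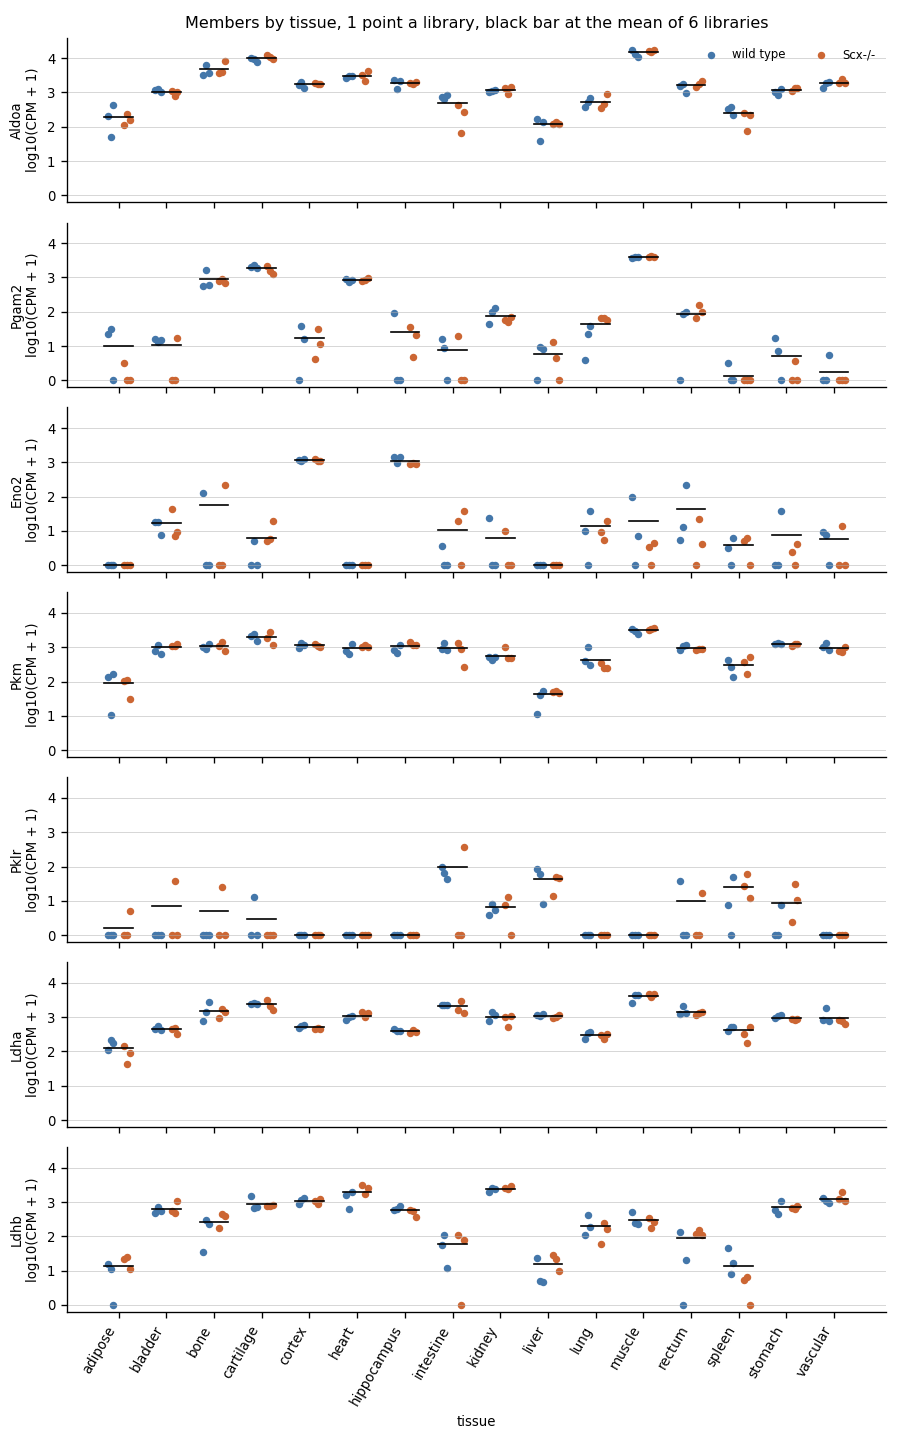
Level of the 7 members other than Eno1, Eno3, and Pgam1 in each library by tissue, as log10(CPM + 1), with wild-type and Scx-/- libraries in separate colours and a black bar at the mean of 6 libraries. Pgam2 stands out in muscle, cartilage, bone, and heart, Eno2 in cortex and hippocampus, and Ldhb falls to 12.9 to 14.7 CPM in spleen, adipose, and liver.

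Pkm (chr9:59656576-59679372, mm10), which encodes the M1 and M2 pyruvate kinases by alternative splicing, was broadly present, and gene counts do not tell its splice forms apart. It was highest in muscle, at 3453, 3039, and 2466 CPM in wild-type and 3126, 3518, and 3714 CPM in Scx-/- libraries, and lowest in liver, at 10.4, 40.8, and 52.9 CPM in wild-type and 49.5, 52.7, and 46.5 CPM in Scx-/- libraries. Cartilage (mean 1963 CPM), stomach (1244 CPM), and cortex (1153 CPM) followed muscle, 13 of the 16 tissue means lay between 313 and 1963 CPM, and adjacent tissues overlapped throughout.

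Pklr (chr3:89136122-89146815, mm10), the liver and red cell pyruvate kinase, had 282 counts in 30 libraries. Liver was the only tissue with a count in each library, at 81.0, 61.2, and 7.06 CPM in wild-type and 13.0, 49.3, and 46.5 CPM in Scx-/- libraries. Intestine held 98.2, 62.8, and 42.6 CPM in wild-type libraries, and 0, 0, and 377 CPM in Scx-/- libraries, the last from 10 counts. Spleen ranged from 0 to 47.4 CPM in wild-type libraries and up to 58.9 CPM in Scx-/- libraries. These 3 tissues overlapped. Pklr made up 46.6% ± 27.7 of the Pkm and Pklr counts in liver (SD, n = 6), 13.0% ± 22.8 in intestine, and 10.3% ± 12.3 in spleen, and at most 1.96% on average elsewhere. The 1.96% was adipose, from 2 Pklr counts in a single library, and kidney came next at 1.04%. The intestine value rests on Scx-/- replicate 3 with its 10 Pklr counts: without that library it was 3.84%, below spleen. On counts summed over the 6 libraries the shares were 49.2% in liver, 7.87% in intestine, and 5.74% in spleen. It had 0 counts in lung, vascular, muscle, heart, cortex, and hippocampus. Red cell markers (Hba-a1, Hba-a2, Hbb-bs, Hbb-bt, and Alas2) summed to 10044 to 68621 CPM in spleen, 5019 to 14958 CPM in lung, and 2424 to 10787 CPM in vascular libraries, and in the latter 2 tissues 3 Pklr counts over 6 libraries would give 3.34 and 2.87 CPM. Pklr and Hcn3 share 711 bases near the 3′ end of Pklr in the annotation, and reads there cannot be given to 1 of them without the strand, whose use in counting is not given in the sources used here.

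RefSeq places 2 starts at Pklr, the downstream of which serves the liver form. Its 250 preceding bases (chr3:89136373-89136622, plus strand, GRCm38.p6) are shown because liver held Pklr in every library.
Pklr: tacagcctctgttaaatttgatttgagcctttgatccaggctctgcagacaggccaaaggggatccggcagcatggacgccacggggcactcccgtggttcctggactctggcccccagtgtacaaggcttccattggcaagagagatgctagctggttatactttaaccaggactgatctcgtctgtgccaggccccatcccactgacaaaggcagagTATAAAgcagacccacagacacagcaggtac
They held TATAAA at -31 and none of the other motifs. The upstream start, of the red cell form, had no match to any of the 5 motifs, and counts at the 3′ end do not tell the starts apart.

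Ldha (chr7:46842274-46855627, mm10), the A subunit, was present in every tissue, with means from 128 CPM in adipose to 4138 CPM in muscle. Muscle held 2598, 4444, and 4322 CPM in wild-type and 4764, 3893, and 4809.9 CPM in Scx-/- libraries. Cartilage (mean 2347 CPM), intestine (2142 CPM), and bone (1471 CPM) came next and overlapped. Ldhb (chr6:142490249-142507957, minus strand, mm10), the B subunit, had another order. Kidney held 1927, 2567, and 2368 CPM in wild-type and 2589, 2462, and 2859 CPM in Scx-/- libraries, and heart held 1589, 623, and 2028 CPM in wild-type and 3155, 1752, and 2639.7 CPM in Scx-/- libraries. The heart value of 623 CPM rests on 7 counts in the library of the lowest total, which also held kidney tubule markers. The part of these in its Ldhb value was not tested. Vascular (mean 1258 CPM) and cortex (1069 CPM) followed, and muscle was ninth of 16 at 298 CPM. Spleen, adipose, and liver were lowest, with means of 12.9, 13.1, and 14.7 CPM.

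The share of Ldhb in the counts of both subunit genes varied widely between tissues. It was above 50% on average in 6 tissues: kidney (72.0% ± 6.34, SD, n = 6), cortex (67.9% ± 3.65), heart (61.6% ± 11.3), hippocampus (58.8% ± 5.53), vascular (58.0% ± 11.5), and bladder (57.8% ± 9.85). It was 41.5% ± 6.95 in stomach, 36.5% ± 14.3 in lung, and 27.3% in cartilage (range 19.7% to 39.4%). It was 14.8% ± 7.14 in bone and 12.6% ± 12.6 in adipose, which was 7.81% without Scx-/- replicate 2, a library with 8 Ldhb counts. It was 7.24% ± 4.77 in muscle, 6.29% ± 4.47 in rectum, 3.16% ± 2.62 in intestine, 3.09% ± 3.61 in spleen, and 1.37% ± 1.06 in liver. Without wild-type replicate 1 the spleen share was 1.69%. Heart and muscle, both striated, did not overlap (38.9% to 69.0% against 4.39% to 16.8%), nor did kidney and liver (64.7% to 83.1% against 0.287% to 2.92%). The 38.9% was wild-type heart replicate 2, without which the heart mean was 66.1%. A share of counts is not a share of molecules, and how counts scale with length in libraries enriched for 3′ ends was not tested. Per kilobase of transcript, heart was at 68.7% and muscle at 9.71%. The Ldhb transcript is the shorter, at 1304 against 1815 bases, so this scaling can only raise its share. That the same 6 tissues stayed above 50% was therefore fixed in advance. Gm5514, a processed pseudogene 98.0% identical to Ldhb over 1002 bases, had 864 counts against 25984 for Ldhb.

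**Figure D3:**
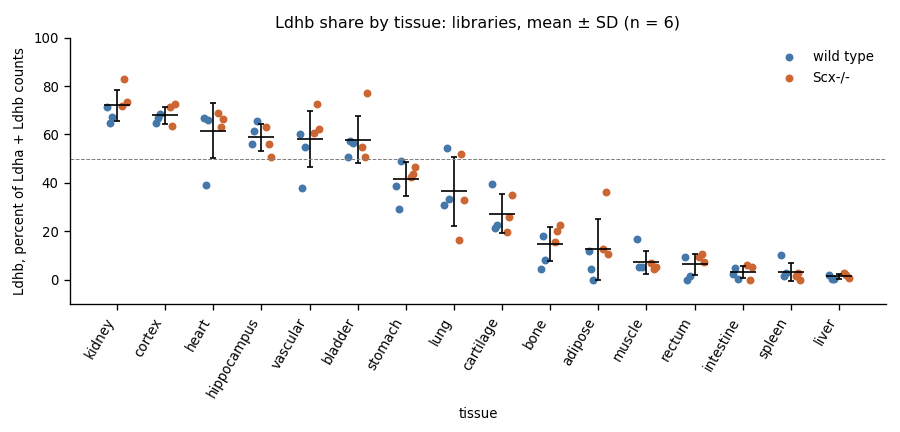
Ldhb as a percentage of Ldha and Ldhb counts in each library, by tissue in falling order of the mean, with the mean and SD of 6 libraries. Kidney (72.0%), cortex, heart, hippocampus, vascular, and bladder lie above the dashed line at 50%, and liver is lowest at 1.37%.

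The promoters of both subunit genes are set side by side because the genes differed in tissue order. The 250 bases lie before the first RefSeq start of Ldha (chr7:46845554-46845803, plus strand, GRCm38.p6) and the start of Ldhb (chr6:142507958-142508207, minus strand).
Ldha: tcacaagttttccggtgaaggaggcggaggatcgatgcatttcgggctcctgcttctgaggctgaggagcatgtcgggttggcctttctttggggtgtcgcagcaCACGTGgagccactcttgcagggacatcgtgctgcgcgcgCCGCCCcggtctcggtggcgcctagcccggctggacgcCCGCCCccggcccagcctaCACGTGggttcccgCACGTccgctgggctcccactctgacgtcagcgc
Ldhb: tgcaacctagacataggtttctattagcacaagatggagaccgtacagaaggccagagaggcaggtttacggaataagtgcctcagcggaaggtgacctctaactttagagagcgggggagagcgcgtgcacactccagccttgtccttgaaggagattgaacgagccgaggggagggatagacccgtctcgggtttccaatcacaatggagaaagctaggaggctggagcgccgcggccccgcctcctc
Ldha held 2 E-boxes at -145 and -48, both of the form CACGTG, 2 GC boxes at -105 and -67, and 5 matches to ACGTG, 4 of them inside those E-boxes and 1 at -34. ACGTG is the core of sites of hypoxia-inducible factors, under which Ldha is known to be induced. A second RefSeq start of Ldha, not printed, had 2 E-boxes at -234 and -79 and no match to the other motifs. Ldhb held no match to any of the 5 motifs. Of all windows, 16.6% held ACGTG and 32.7% a GC box.

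The genes most like each member over the 16 tissue means were found by Pearson's r of log2(CPM + 1) among 15926 genes with at least 10 CPM in a tissue. For Aldoa they were Ak1 (0.951), Pde4dip (0.933), and Slc25a4 (0.896), for Pgam2 Smpx (0.966), Rpl3l (0.943), and Myom2 (0.940), and for Eno2 Cadps (0.982), Nsg2 (0.982), and Slc8a2 (0.980). For Pkm they were Mbnl2 (0.888), Aldoa (0.874), and Smarcd3 (0.851), and for Pklr Igf2bp3 (0.895), Abhd2 (0.876), and Tmem86b (0.873). For Ldha they were Tpi1 (0.888), Sar1b (0.88), and Pgm2 (0.859), and for Ldhb its own copy Gm5514 (0.927), Me3 (0.917), and Usp2 (0.903). Between members, Aldoa and Pgam2 gave 0.781, Aldoa and Ldhb 0.687, and Ldha and Ldhb 0.237. These are descriptions over 16 points that share libraries and depth.

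Tissue pairs were compared by edgeR's quasi-likelihood test on 12 libraries with genotype as a covariate, and a gene was called at a Benjamini-Hochberg adjusted p under 0.05 over all genes tested. Fold changes are on the TMM scale. With library totals in place of TMM, the median log2 difference of all genes was lower by 0.53 between muscle and heart, 0.40 between muscle and cartilage, 0.43 between muscle and cortex, and 0.52 between liver and kidney, so fold changes of the model lay above the ratios of CPM in these pairs. The members called in the 6 pairs kept their direction under RLE factors, library totals, DESeq2, and the other alternatives run.

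Between muscle and heart, skeletal muscle was higher in Aldoa, Pkm, Ldha, and Pgam2 and lower in Ldhb. Of the 8 members tested, 4 were called higher in muscle and 1 lower, where 2.28% and 1.67% of all genes were. The log2 fold changes were 2.86 ± 0.40 for Aldoa (SE, adjusted p = 9.00e-11), 2.77 ± 0.43 for Pgam2, 2.53 ± 0.42 for Ldha, 2.21 ± 0.42 for Pkm, and -2.30 ± 0.45 for Ldhb (adjusted p = 3.05e-05). All 5 genes had library ranges without overlap, and the CPM means differed by 4.96 times for Aldoa and 4.68 times for Pgam2. With the 3 wild-type libraries of each tissue alone, 1 of which is the library with the lowest total, none of the 5 was called, with log2 fold changes of 1.98 to 2.61 and -2.06 for Ldhb.

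Between muscle and cartilage, the same 4 genes were higher in muscle and Ldhb was lower, among 7 members tested, against 0.521% and 1.09% of all genes. The differences were smaller: 1.46 ± 0.25 on the log2 scale for Pgam2, 1.23 ± 0.24 for Ldha, 1.06 ± 0.25 for Pkm, and 0.93 ± 0.19 for Aldoa, and -1.27 ± 0.35 for Ldhb (SE, adjusted p = 0.0254). Only Pgam2 and Ldhb did not overlap between these tissues. Ldhb was at 526, 241, and 232 CPM in wild-type and 351, 179, and 259.7 CPM in Scx-/- muscle, and at 1533, 689, and 696 CPM and 753, 755, and 844 CPM in cartilage. None of the 5 was called with wild-type libraries alone. Ldhb was not called without any 1 of wild-type replicates 2 and 3 and Scx-/- replicates 2 and 3 (adjusted p = 0.104 to 0.162, edgeR), nor Pkm without Scx-/- replicate 1 or 3 (0.0516 and 0.163), so that 3 were called without Scx-/- replicate 3.

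Between muscle and cortex, Pgam2, Ldha, Aldoa, and Pkm were higher in muscle and Eno2 and Ldhb higher in cortex, among 8 members tested, where 9.75% of all genes were called higher in muscle and 17.9% lower. The log2 fold change was 8.53 ± 0.45 for Pgam2 (SE, adjusted p = 7.91e-52) and -7.84 ± 0.51 for Eno2 (adjusted p = 4.18e-51). Ldha (3.58 ± 0.33) and Aldoa (3.55 ± 0.31) differed more than Pkm (1.95 ± 0.31), and Ldhb was at -1.44 ± 0.33, which with wild-type libraries alone was -1.56 and not called (adjusted p = 0.0542). Pgam2 had 15.9 CPM on average in cortex.

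Between cortex and hippocampus, 2 brain regions, only Ldhb was called of 8 members tested, higher in cortex by 1.06 ± 0.18 on the log2 scale (SE, adjusted p = 4.13e-06), where 0.708% of all genes were called higher and 0.228% lower. Cortex libraries held 855 to 1304 CPM of Ldhb and hippocampus libraries 376 to 741 CPM. Eno2 differed by 0.30 ± 0.16 (adjusted p = 0.50), Pkm by 0.30 ± 0.16, Ldha by 0.49 ± 0.22, and Aldoa by 0.03 ± 0.14, none of which passed the test. With wild-type libraries alone Ldhb was at 0.98 and was not called (adjusted p = 0.118).

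Between liver and kidney, Pklr and Ldha were higher in liver and Aldoa, Pkm, Ldhb, and Pgam2 in kidney, among 9 members tested, where 6.38% of all genes were called higher in liver and 9.69% lower. Ldhb showed the largest of these differences, -6.60 ± 0.27 on the log2 scale (SE, adjusted p = 1.22e-125), from 3.53 to 28.6 CPM in liver against 1927 to 2859 CPM in kidney. The pyruvate kinase genes went in opposite directions: Pkm was at -3.12 ± 0.32 and Pklr at 3.53 ± 0.92 (adjusted p = 0.00110). Libraries overlapped for Pklr, at 7.06 to 81.0 CPM in liver and 0 to 12.3 CPM in kidney. Aldoa was at -2.63 ± 0.25 and Pgam2 at -3.14 ± 0.86. Ldha was at 0.82 ± 0.20, but its libraries overlapped, with means of 1095 and 979.6 CPM, and with library totals as scaling it was at 0.17 and not called (adjusted p = 0.514), as it was with wild-type libraries alone (0.60, adjusted p = 0.206).

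Between spleen and bone, Aldoa, Pkm, Ldha, Ldhb, and Pgam2 were lower in spleen among 8 members tested, where 1.91% of all genes were called higher in spleen and 2.85% lower. Aldoa was at -4.08 ± 0.42 on the log2 scale (SE, adjusted p = 2.79e-19), Ldhb at -4.02 ± 0.96, Ldha at -1.63 ± 0.46, and Pkm at -1.56 ± 0.49 (adjusted p = 0.0344). For Pgam2, with 1 count in spleen and 572 to 1673 CPM in bone, no fold change is given (adjusted p = 2.08e-24). Bone held 24851 to 91455 CPM of skeletal muscle markers and spleen 0 to 55.6 CPM, with 4 of the 8 at 0 in spleen. Pancreatic acinar markers summed to 5404, 4128, and 0 CPM in wild-type and 4.27, 27076, and 14155 CPM in Scx-/- spleen, and the library with most of them, Scx-/- replicate 2, was the lowest of spleen in Aldoa (75.0 CPM) and Ldha (177 CPM). Without Scx-/- replicate 2 of both spleen and bone, Aldoa was at -3.90 and still called. Pklr was at 2.84 ± 1.84 and was not called. With wild-type libraries alone only Aldoa and Pgam2 were called. Pkm was not called without wild-type replicate 2 or 3 or Scx-/- replicate 1 or 2 (adjusted p = 0.0802 to 0.150, edgeR), and Ldha not without wild-type replicate 3 or Scx-/- replicate 2 (0.086 and 0.113), which left 3 calls.

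**Figure D4:**
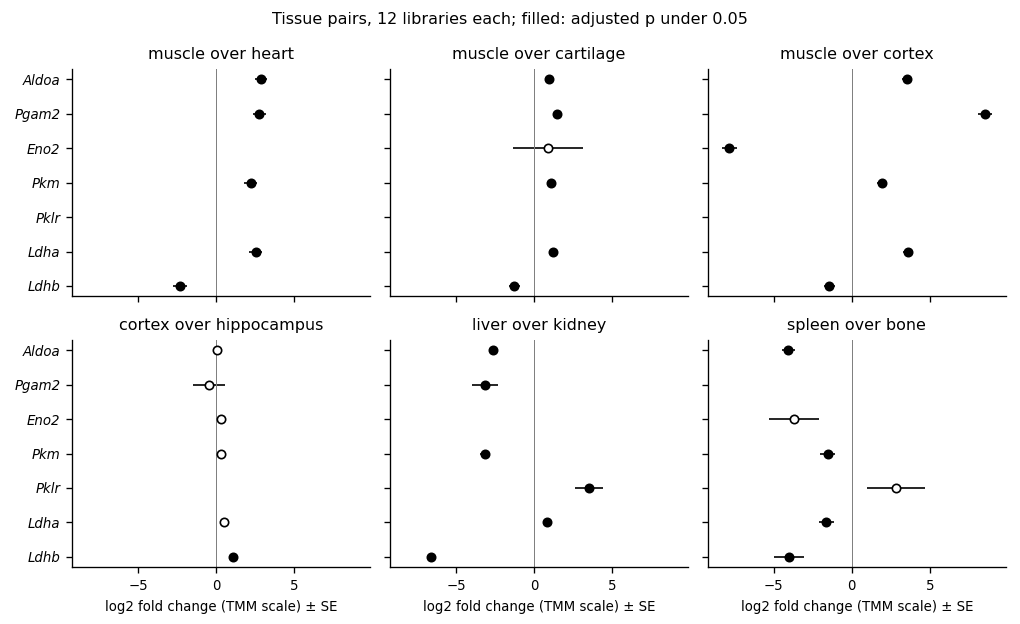
Log2 fold changes of 7 members between 6 pairs of tissues (edgeR, TMM scale, 12 libraries a pair), with bars of 1 SE and filled points at an adjusted p under 0.05. Genes for which a tissue was at 0, and Pgam2 between spleen and bone with 1 count in spleen, have no fitted SE and are not drawn, and Ldhb lies left of 0 in all pairs but cortex over hippocampus.

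Of 14 other genes of glycolysis and 15 genes of glucose and lactate transport and pyruvate supply, the members' neighbours in the pathway, 3 and 2 were called higher and 2 and 1 lower in muscle than in heart. The genes higher in muscle were Tpi1 (log2 fold change 2.18 ± 0.43), Gpi1 (1.58 ± 0.47), and Pfkm (1.51 ± 0.44) of glycolysis and Slc16a3, a lactate exporter (5.49 ± 0.78), and Pfkfb3 (3.61 ± 1.01). Among the genes higher in heart were Hk1 (-2.73 ± 0.80) and Slc16a1, a lactate carrier (-2.11 ± 0.62). Between muscle and cartilage, Gpi1 (1.36 ± 0.35) and Tpi1 (1.15 ± 0.27) were called higher in muscle, 1 gene of glycolysis lower, and none of the transport genes, of which 5 of 14 had an unadjusted p under 0.05, where 11.3% of all genes did. Between muscle and cortex, 5 and 4 genes of these lists were called higher and 4 and 4 lower, with Slc16a3 (5.19 ± 0.48) and Pdk4 (5.53 ± 0.43) among the former and Aldoc (-7.23 ± 0.50) and Hk1 (-3.88 ± 0.49) among the latter. In liver against kidney 1 and 2 were called higher and 2 and 2 lower, with Gpi1 (-1.05 ± 0.32) among the latter. In spleen against bone 1 gene was called higher, Bpgm (2.75 ± 0.52), which makes 2,3-bisphosphoglycerate in red cells, and 3 and 2 lower. None was called between cortex and hippocampus, where 1 of 13 and 1 of 14 genes had an unadjusted p under 0.05, against 10.4% of all genes. The shares of all genes called in each pair are those given with the members above.

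Loss of Scx was compared with wild type within each tissue, 3 libraries against 3, by the same edgeR test. No member was called at an adjusted p under 0.05 in any tissue, among 120 of 160 gene and tissue pairs with a count, where 0.0914% of all gene and tissue pairs were called. DESeq2 also called none, and 5 of the 120 had an unadjusted p under 0.05, where 4.01% of all pairs did. At the thresholds the study used, an unadjusted p under 0.05 and more than a 2-fold change, 1 pair of the 120 passed, against 3.71% of all pairs. This was Aldoa in intestine, at 752, 652, and 862 CPM in wild-type and 419, 66.6, and 264 CPM in Scx-/- libraries, the latter from 23, 2, and 7 counts. Its log2 fold change was -1.95 ± 0.85 (SE, adjusted p = 0.652), beside a median of -1.63 over all genes in intestine, and it did not pass with library totals as scaling. No pair passed these thresholds without Scx-/- replicate 2, and 4 and 2 did without Scx-/- replicates 1 and 3.

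The other 4 of the 5, a number near that share of all pairs, were below 2-fold. Pkm in hippocampus was at 827, 671, and 1133 CPM in wild-type and 1463, 1131, and 1140.0 CPM in Scx-/- libraries (log2 fold change 0.68 ± 0.28, adjusted p = 0.762 in edgeR). Aldoa in muscle was at 0.69 ± 0.30, Ldha in kidney at -0.48 ± 0.22, and Ldha in vascular at -0.98 ± 0.42, all with an adjusted p of at least 0.672. Beside them, the median over all genes was 0.42 in hippocampus, 0.24 in muscle, -0.28 in kidney, and -0.51 in vascular. With library totals in place of TMM these medians were 0.26, -0.01, -0.17, and -0.14. In muscle, wild-type replicate 1 held 517 Aldoa counts against 4977 to 14771 in the other 5 libraries. Its total was 30409 counts, the only one of muscle under 50000, and its 17002 CPM was the highest wild-type value. Without this library Aldoa in muscle was at 0.59 with an adjusted p of 0.00395 in edgeR.

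In 6 of the 120 gene and tissue pairs the libraries of the genotypes did not overlap, where 7.96% of all pairs did not. Scx-/- libraries were lower for Aldoa in intestine, Ldha in stomach, Ldhb in spleen, and Eno2 in hippocampus, and higher for Eno2 in cartilage and Pgam2 in lung. Ldha in stomach was at 912, 1109.8, and 1142 CPM in wild-type and 908, 807, and 876 CPM in Scx-/- libraries. Ldhb in spleen rested on 1, 1, and 0 counts in Scx-/- libraries and Pgam2 in lung on 1, 1, and 2 counts in wild-type libraries, and no fold change is read from either. In lung the skeletal muscle markers summed to 193, 3534, and 7554 CPM in wild-type and 1600.2, 3372, and 3663 CPM in Scx-/- libraries in rising order.

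Of the lists of other pathway genes, 1 of 199 gene and tissue pairs of glycolysis was called between genotypes and none of 203 pairs of transport and pyruvate supply. At an unadjusted p under 0.05 the counts were 17 of 199 and 11 of 203 pairs, against 4.01% of all pairs, and at the study's thresholds 15 and 10, against 3.71%. The called gene was Aldoc, the brain aldolase, in hippocampus, at 919, 493, and 567 CPM in wild-type and 1479, 1323, and 1559 CPM in Scx-/- libraries (log2 fold change 1.32 ± 0.28, adjusted p = 0.0471 in edgeR). Aldoc is also a marker of astrocytes, and the sum of the 4 astrocyte markers did not overlap in hippocampus, at 1259 to 2227 CPM in wild-type and 2613 to 3103 CPM in Scx-/- libraries. Without Aldoc the remaining markers (Gfap, Aqp4, and Slc1a2) overlapped, at 692 to 1307 CPM and 1054 to 1624 CPM. The 5 neuron markers summed to 5963, 6557, and 6316 CPM in wild-type and 7113, 6432, and 6625 CPM in Scx-/- hippocampus, overlapping and not lower in Scx-/- libraries as the Eno2 values were. The part of the makeup of cells in the Eno2 and Pkm values was not tested.

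A genotype effect common to the 16 tissues was not called for any of the 7 members that passed the count filter (edgeR over 96 libraries with tissue as a covariate), where 0.520% of all genes were called, and none had an unadjusted p under 0.05. For the abundant genes the estimates were 0.07 ± 0.11 on the log2 scale for Aldoa, 0.09 ± 0.12 for Pkm, -0.16 ± 0.11 for Ldha, and 0.15 ± 0.14 for Ldhb (SE). For Pgam2 the estimate was -0.01 ± 0.23, for Eno2 -0.32 ± 0.33, and for Pklr 0.42 ± 0.52. These SEs take the libraries as independent and do not measure the spread between mice, since the mouse behind each library is not given. Within tissues, Aldoa ranged from -1.95 in intestine to 0.69 in muscle, Ldha from -0.98 in vascular to 0.54 in heart, and Pkm from -0.75 in vascular to 0.74 in liver. Ldhb ranged from -2.50 in spleen to 1.54 in adipose, where its SEs were 2.50 and 2.49, and neither value is read as a difference.

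**Figure D5:**
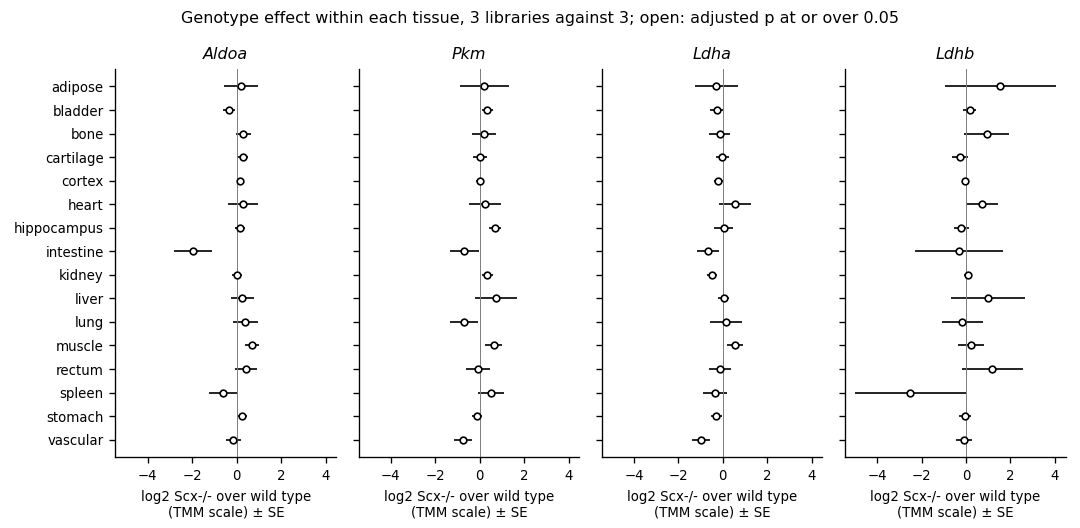
Log2 fold change of Scx-/- over wild type within each tissue for Aldoa, Pkm, Ldha, and Ldhb (edgeR, TMM scale, 3 libraries against 3), with bars of 1 SE. All points are open, since none reached an adjusted p under 0.05, and Aldoa in intestine lies at -1.95.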

How the data were processed

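RNA was measured in 96 libraries of 16 tissues. The deposited values are raw counts per gene symbol, for which the authors aligned reads with Bowtie2 (mm10) and counted them with HTSeq. Versions, annotation, strand setting, and molecular identifiers are not given. The paper calls the approach enriched for 3′ ends, and the series record names Smart-seq2 as its base.

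The members and gene lists were chosen with earlier results of these data known. All members are named, with their 3 most correlated genes, called genes of the pathway lists, and copies; some list genes are counted but not reported here by name. Genotypes and tissue pairs were compared by edgeR 4.0.16 (R 4.3.3; TMM, robust glmQLFit) on genes with a count, the common effect on genes passing filterByExpr, with p-values adjusted over all genes. Alternatives were RLE factors, library totals, filterByExpr, a replicate block, DESeq2 1.42.0, wild-type libraries alone, leaving out replicates, and, chosen after seeing the data, leaving out libraries under 50000 counts or the cartilage library labelled Scx-/- that held Scx counts. An SE is the fitted log2 coefficient over the square root of F. With 3 against 3 libraries, exact permutation cannot go below 0.1. Replicate pairs differed by more than counting error (chi-square over its degrees of freedom was 6.93 or more in 96 pairs), and 0 columns were left unmapped. Floors of 3 counts cover counting error only. Copies were found with blastn 2.17.0 in GENCODE vM21 transcripts, coordinates and promoters come from RefSeq (GRCm38.p6), and scripts were tested on simulated data. Python 3.11.15 was used with pandas 2.3.3 and matplotlib 3.10.9.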

Additional observations from a re-analysis of the deposited data

Results flagged for a closer look

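Eno2 is given here because its genotypes did not overlap in 2 tissues, in opposite directions, where 7.96% of all gene and tissue pairs did not overlap. All 3 Scx-/- libraries were above all 3 wild-type libraries in 1 tissue, cartilage, and below them in 1 tissue, hippocampus. In cartilage the values were 0, 4.03, and 0 CPM in wild-type and 4.13, 4.87, and 18.1 CPM in Scx-/- libraries, from 0 to 5 counts each. The libraries nearest each other there, wild-type replicate 2 and replicate 1 labelled Scx-/-, held 1 count each, and the latter is the library in which Scx went against the label. In hippocampus they were 1434, 953, and 1441 CPM in wild-type and 881, 942, and 866 CPM in Scx-/- libraries, with a log2 fold change of -0.33 ± 0.28 (SE) and an adjusted p of 0.770 in edgeR. The sum of 4 astrocyte markers was 1259 to 2227 CPM in wild-type and 2613 to 3103 CPM in Scx-/- hippocampus, and without Aldoc the sums overlapped (692 to 1307 and 1054 to 1624 CPM). Neither tissue passed the test, and the difference between the tissues was not tested.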

How the results depend on the processing

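Member calls between genotypes at an adjusted p under 0.05 stayed at 0 under every scaling, filter, and tool tried, and ranged from 0 to 1 without 1 replicate. At the study's thresholds the 1 call became 0 with library totals and ranged from 0 to 4 without 1 replicate. The common effect stayed at 0 calls in all fits. With wild-type libraries alone, calls fell to 0 between muscle and heart, 0 between muscle and cartilage, 0 between cortex and hippocampus, and 2 between spleen and bone. Without 1 replicate, taken out of both tissues, they ranged from 3 to 5 between muscle and cartilage and from 3 to 5 between spleen and bone. Leaving out libraries under 50000 counts left the counts of all 6 pairs at their values, and was not run for the genotypes within tissues. No pairing by replicate number was seen: deviations of same-numbered libraries correlated between -0.122 and 0.034 across genotypes, and 0 of 48 pairs passed 0.1. Across the tissues of the 6 pairs they correlated between -0.0796 and 0.0676, and 0 of 36 passed. Low correlations do not exclude that tissues came from the same mice. With the replicate block, Ldhb between muscle and cartilage was not called (adjusted p = 0.0901 in edgeR), which left 4 calls there. Per kilobase, a scaling that can only raise them, Ldhb shares moved by more than 1 SD in cortex (74.6%), hippocampus (66.4%), and stomach (49.6%). The number of tissues with a mean share above 50% was 6 under all alternatives run. Pklr, Eno1, and Pgam1 had 282, 9, and 103 counts in all, and no small difference could be shown for them.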

Other observations

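Other isoenzyme genes of the pathway also differed by tissue. Aldoc, the brain aldolase, had means of 1108 ± 158 CPM in cortex and 1057 ± 465 CPM in hippocampus (SD, n = 6, both genotypes, which differed there), the tissues in which Eno2 was highest. Pfkm, the muscle phosphofructokinase, reached 1397 ± 413 CPM in muscle and 1031 ± 154 CPM in cartilage, and Tpi1, which has 1 gene for all tissues, 2394 ± 419.5 CPM in muscle and 1407 ± 211 CPM in cartilage. Bpgm, the red cell bisphosphoglycerate mutase, was at 1039.8 ± 489 CPM in spleen and 295 ± 98.5 CPM in lung. Slc16a3, which exports lactate, was at 220.0 ± 87.4 CPM in muscle, and Pdk4, which inhibits pyruvate dehydrogenase, at 943 ± 133 CPM in vascular and 618 ± 662 CPM in heart.

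The germ cell forms were near 0 in these tissues, with 11 counts for Ldhc, 7 for Gapdhs, and 0 for Pgk2 over all libraries, and Aldoart1 and Aldoart2 had 9 and 45 counts against 107830 for Aldoa. Gm5514 followed Ldhb over the 16 tissues (r = 0.927 of log2(CPM + 1)) and is 98.0% identical to it over 1002 bases, and whether its counts are Ldhb reads was not tested.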
